A study of Mus musculus with 9 samples.

Results

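The solute carrier 25 family was described across 9 RNA-seq libraries of C2C12 myotubes. C2C12 is a mouse myoblast line whose cells fuse into multinucleated myotubes when made to differentiate. Members were every row of the deposited expression table whose symbol starts with Slc25a, which gave 35 of 10716 genes. The rule reads the symbol alone, but it was chosen with earlier results of these data known. Every value of the table exceeds 1, so being a member also depends on measured level. Myotubes received vehicle, 50 µM dexamethasone, or 50 µM dexamethasone together with 10 µM THSG, each for 24 h and with 3 libraries per group. Dexamethasone is a synthetic glucocorticoid that the study's title uses to model muscle atrophy. THSG is given in the labels only by these letters, and no group received it alone, so its effect can be read only in the presence of dexamethasone. All groups share 1 cell line in culture, although the source field names skeletal muscle, and the labels do not say whether the replicates were separate cultures. The p-values therefore measure only the spread between these libraries, which may be technical.

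Most Slc25 proteins sit in the inner mitochondrial membrane and exchange small molecules between the cytosol and the matrix. Through them ADP and phosphate reach ATP synthase and ATP leaves, citrate leaves for lipid synthesis, and amino acids, cofactors, iron and acylcarnitines enter. A few members lie elsewhere, such as Slc25a17 in the peroxisomal membrane and Slc25a46 in the outer mitochondrial membrane. Muscle is known for its large amounts of the adenine nucleotide and phosphate carriers, which supply contraction with ATP.

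The values were taken to be FPKM (fragment counts scaled to transcript length and library size), and every value of the table exceeds 1 FPKM. Library sums ranged from 400218 to 422379 FPKM, and sequencing depth is unknown. All rows whose symbol starts with mt- took 10.5% to 11.95% of the sum in 8 libraries and 14.001% in dexamethasone replicate 3. All 13 myotube marker genes that were looked for were present. Their summed level was 6934 to 7511 FPKM with vehicle, 7798 to 8384 FPKM with dexamethasone and 8270.2 to 8449 FPKM with dexamethasone plus THSG. With dexamethasone 8 of the 13 rose, beside 12.7% of all genes. Des fell (log2 fold change -0.16, limma adjusted p = 0.0405), beside 20.9% of all genes. The other 4 were not called, among them Acta1, the most abundant marker at 3030 FPKM with vehicle. None of the 5 adipocyte, 4 macrophage or 3 endothelial markers was found in the table. Of 6 fibroblast or mesenchymal markers, 4 were in the table, and Thy1 and Lum were not. The summed level of the 4 was 408 to 427 FPKM with vehicle, 202 to 206 FPKM with dexamethasone and 205 to 215 FPKM with dexamethasone plus THSG. Col1a1, Col1a2 and Dcn fell with dexamethasone, while Pdgfra rose (log2 fold change 1.31, limma adjusted p = 2.88e-07). Of 5 markers of undifferentiated myoblasts or reserve cells, 4 were in the table, and Mki67 was not. The sum of the 4 was 47.4 to 51.1 FPKM with vehicle, 32.6 to 35.3 FPKM with dexamethasone and 34.0 to 36.5 FPKM with THSG added. Pax7, Cd34 and Top2a fell, while Myf5 rose (log2 fold change 1.05, limma adjusted p = 1.04e-06). The marker levels thus differed between vehicle and dexamethasone in both directions, and their part in the results on the carriers was not tested. In bulk RNA, fewer cells of a type and less RNA per cell cannot be told apart.

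The carriers spanned a 170.1-fold range of mean level, from Slc25a23 at 1.52 FPKM to Slc25a3 at 258 FPKM. Slc25a3, Slc25a5 and Slc25a4, the phosphate carrier and the adenine nucleotide translocators 2 and 1, were the only 3 members with a mean above 100 FPKM. Together they held 56.1% to 59.7% of the summed family level in each library. A further 8 members had a mean from 20 to 100 FPKM, 14 from 5 to 20 FPKM and 10 below 5 FPKM. The sum over all 35 members was 1008 ± 29 FPKM with vehicle, 964 ± 11 FPKM with dexamethasone and 995 ± 28 FPKM with dexamethasone plus THSG (SD, n = 3). It made up 0.232% to 0.246% of the summed FPKM of a library. An exact permutation test of the family sum, dexamethasone against vehicle, gave p = 0.1 (adjusted p = 0.262 over 21 tests). With 3 libraries per group this test cannot give a smaller p. Low members were measured less tightly, with a median coefficient of variation within groups of 10.9% below 5 FPKM and 6.07% at or above it. The annotation lists 12 further Slc25a genes that are not pseudogenes (Slc25a2, a13, a18, a21, a31, a34, a41, a43, a47, a48, a53 and a54); these were not analysed here.

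**Figure D1:**
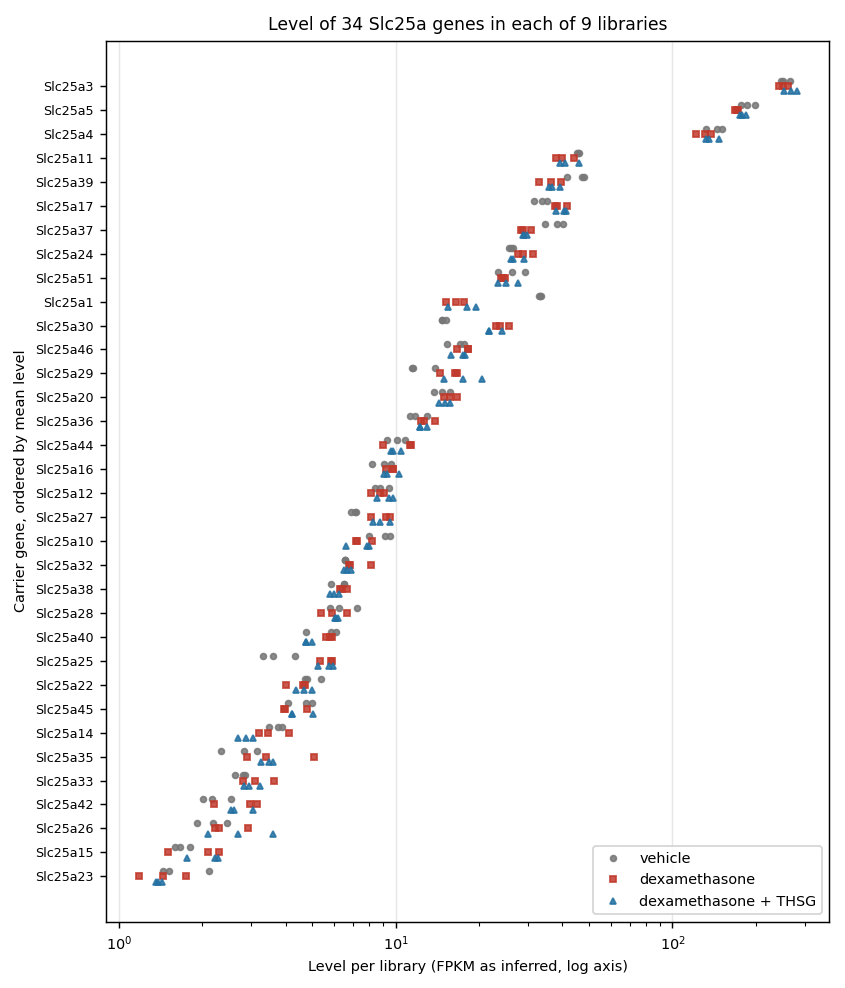
Level of 34 of the 35 carriers in FPKM on a log axis, with 1 point per library (9 in all), symbol and colour for the group, and members ordered by mean level. Slc25a3, Slc25a5 and Slc25a4 lie above 100 FPKM in every library, and Slc25a23 lies lowest with a mean of 1.52 FPKM.

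With dexamethasone, 5 carriers rose and 4 fell against vehicle at an adjusted p under 0.05 (limma across all 10716 genes, Benjamini-Hochberg), and 26 were not called. Those that rose were Slc25a30, Slc25a25, Slc25a29, Slc25a27 and Slc25a17; those that fell were Slc25a1, Slc25a37, Slc25a39 and Slc25a5. The 5 that rose are 14.3% of the members, beside 12.7% of all genes, and the 4 that fell are 11.4%, beside 20.9% of all genes. The median log2 fold change was 0.06 over the members and -0.05 over all genes. The 3 dexamethasone libraries did not overlap the 3 vehicle libraries in 12 members (34.3%), 7 higher and 5 lower, beside 45.9% of all genes. The share of members that rose was close to the share of all genes and the share that fell was below it, and neither was tested against it. Slc25a1, Slc25a37, Slc25a39, Slc25a30, Slc25a25 and Slc25a27 kept their calls under all 20 other settings tried, and Slc25a17, Slc25a29 and Slc25a5 did not. Members that were not called had log2 fold changes from -0.24 (Slc25a10) to 0.41 (Slc25a35), and their 95% intervals reached from -0.60 (Slc25a23) to 0.81 (Slc25a35).

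**Figure D2:**
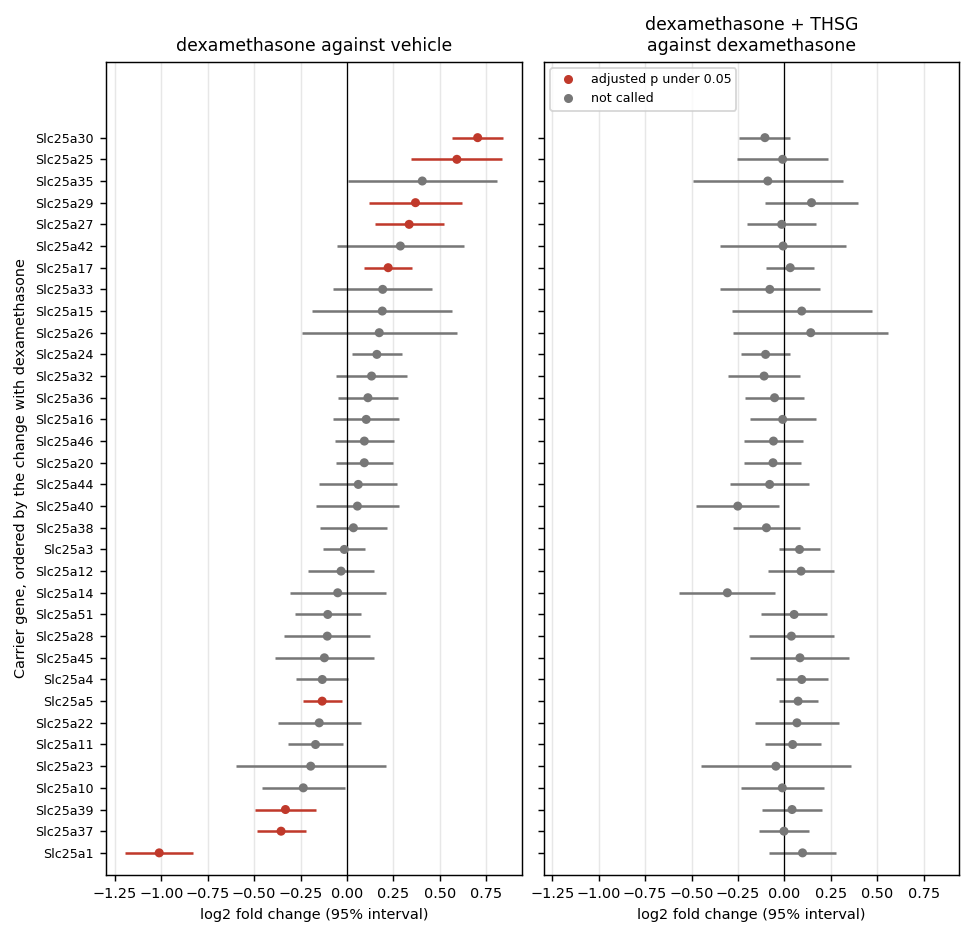
Log2 fold change of 34 of the 35 carriers with its 95% interval from limma, for dexamethasone against vehicle (left) and dexamethasone plus THSG against dexamethasone (right), ordered by the left panel. Red marks an adjusted p under 0.05, which 9 members reached on the left, from Slc25a1 at -1.01 to Slc25a30 at 0.70, and 0 members on the right.

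The largest fall was that of Slc25a1, the citrate carrier, which exports citrate from the matrix to the cytosol. Its level was 33.2, 32.9 and 33.6 FPKM in the vehicle libraries, 15.1, 17.7 and 16.6 FPKM with dexamethasone, and 19.4, 18.1 and 15.5 FPKM with dexamethasone plus THSG. All 6 libraries with dexamethasone lay below all 3 vehicle libraries, and the dexamethasone groups with and without THSG overlapped. The mean fell from 33.2 ± 0.35 to 16.5 ± 1.3 FPKM (SD, n = 3), which is -1.01 as a log2 fold change (SE 0.083, limma adjusted p = 2.47e-06).

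The other carriers of di- and tricarboxylates were the 2-oxoglutarate carrier Slc25a11, which trades 2-oxoglutarate for malate, and the dicarboxylate carrier Slc25a10. Slc25a11 stood at 45.7, 46.1 and 45.3 FPKM with vehicle, 44.1, 38.1 and 39.8 FPKM with dexamethasone and 39.1, 40.7 and 46.1 FPKM with THSG added. The dexamethasone libraries were all below the vehicle libraries, while the THSG libraries overlapped them. Its change with dexamethasone was -0.17 on the log2 scale (SE 0.068, limma adjusted p = 0.0778). Without dexamethasone replicate 1 it was -0.23 with a limma adjusted p of 0.0291, and leaving out replicate 3 of dexamethasone plus THSG gave 0.046. Without dexamethasone replicate 2 the change was -0.12 (limma adjusted p = 0.243). Slc25a10 had a log2 fold change of -0.24 (limma adjusted p = 0.098) and its groups overlapped.

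Beside these carriers, 21 genes of pyruvate entry, the citrate cycle and citrate use in the cytosol were all in the table. With dexamethasone 3 fell and 0 rose (median log2 fold change 0.00), beside 20.9% and 12.7% of all genes. Acly, which splits exported citrate into acetyl-CoA and oxaloacetate, fell from 57.7 ± 3.3 to 34.1 ± 2.2 FPKM (SD, n = 3), or -0.76 on the log2 scale (limma adjusted p = 2.18e-06). Me1, the cytosolic malic enzyme that makes NADPH, changed by -0.53 (limma adjusted p = 0.000883). Aco1, the cytosolic aconitase and iron regulatory protein, changed by -0.21 (limma adjusted p = 0.0283). The citrate carrier and the cytosolic enzyme that uses its product were thus both lower, while 18 of the 21 genes were not called.

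Of the 4 carriers of iron and glutathione, 2 fell with dexamethasone and 0 rose, beside 20.9% and 12.7% of all genes. Slc25a37, mitoferrin 1, brings iron into the matrix for heme and iron-sulfur cluster synthesis. It stood at 34.5, 40.1 and 38.3 FPKM with vehicle, 28.9, 28.4 and 30.9 FPKM with dexamethasone, and 29.9, 29.0 and 29.1 FPKM with THSG added. Every library with dexamethasone was below every vehicle library, and the groups with and without THSG had nearly equal means of 29.3 and 29.4 FPKM. The change with dexamethasone was 0.782-fold (SE 0.060 on the log2 scale, limma adjusted p = 0.000788).

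Slc25a39, an importer of glutathione, fell with dexamethasone as well. Its values were 48.1, 41.7 and 47.2 FPKM with vehicle, 39.5, 36.4 and 32.96 FPKM with dexamethasone and 36.6, 35.8 and 39.4 FPKM with dexamethasone plus THSG. No library with dexamethasone reached the lowest vehicle library. On the log2 scale it changed by -0.33 (SE 0.075, limma adjusted p = 0.00502). With the correction for GC content and transcript length the change was smaller, at -0.21 (limma adjusted p = 0.014). Its paralog Slc25a40 and the second mitoferrin Slc25a28 were not called, at 0.06 (limma adjusted p = 0.716) and -0.11 (limma adjusted p = 0.474).

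The ratio of mitoferrin 1 to mitoferrin 2 was 5.89 ± 0.62 with vehicle, 4.95 ± 0.33 with dexamethasone and 4.80 ± 0.11 with THSG added (SD, n = 3). For this ratio, dexamethasone against vehicle gave an exact permutation p of 0.1, the smallest possible (adjusted p = 0.262). Among 13 genes of mitochondrial iron, heme and iron-sulfur synthesis, 1 rose and 4 fell (median log2 fold change 0.00). Of all genes, 12.7% rose and 20.9% fell. Among the 13 were Glrx5, a glutaredoxin of iron-sulfur cluster transfer, at -0.54 (limma adjusted p = 0.0141), and Fech at 0.21 (limma adjusted p = 0.022). Fech forms heme by inserting iron into protoporphyrin. The members that moved did not share 1 direction.

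The largest rise was that of Slc25a30, a relative of the uncoupling proteins first described as a kidney mitochondrial carrier. Its level was 14.7, 15.1 and 14.7 FPKM with vehicle, 23.1, 23.9 and 25.8 FPKM with dexamethasone, and 24.2, 21.7 and 21.8 FPKM with dexamethasone plus THSG. All 6 libraries with dexamethasone lay above the vehicle libraries. The mean rose from 14.8 ± 0.26 to 24.3 ± 1.4 FPKM (SD, n = 3), which is 0.70 as a log2 fold change (SE 0.063, limma adjusted p = 4.68e-06). With THSG added the mean was 22.6 ± 1.4 FPKM, a log2 fold change against dexamethasone of -0.10 (95% interval -0.24 to 0.03).

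Slc25a27, also called uncoupling protein 4, rose too. It stood at 6.92, 7.10 and 7.17 FPKM with vehicle, 9.52, 8.12 and 9.22 FPKM with dexamethasone, and 8.28, 9.53 and 8.76 FPKM with THSG added. The vehicle libraries lay together below all others, and the 2 groups with dexamethasone overlapped. Slc25a27 changed by 0.33 on the log2 scale (SE 0.084, limma adjusted p = 0.00964). Slc25a14, uncoupling protein 5, was not called with dexamethasone, at -0.05 (limma adjusted p = 0.783).

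Family members that carry other symbols were Ucp2, Mtch1 and Mtch2, while Ucp1 and Ucp3 were not among the rows found. Ucp2, which exchanges aspartate, malate and phosphate across the inner membrane, fell from 27.2 ± 0.56 FPKM with vehicle to a dexamethasone mean 0.627 times as high (log2 fold change -0.67, limma adjusted p = 8.18e-06). Mtch1, a relative of the outer membrane insertase Mtch2, fell from 208 ± 10 to 168 ± 4.9 FPKM (log2 fold change -0.30, limma adjusted p = 0.00048), and Mtch2 was not called (0.09, limma adjusted p = 0.226). Ucp2 therefore moved opposite to Slc25a30 and Slc25a27 in the same libraries.

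**Figure D3:**
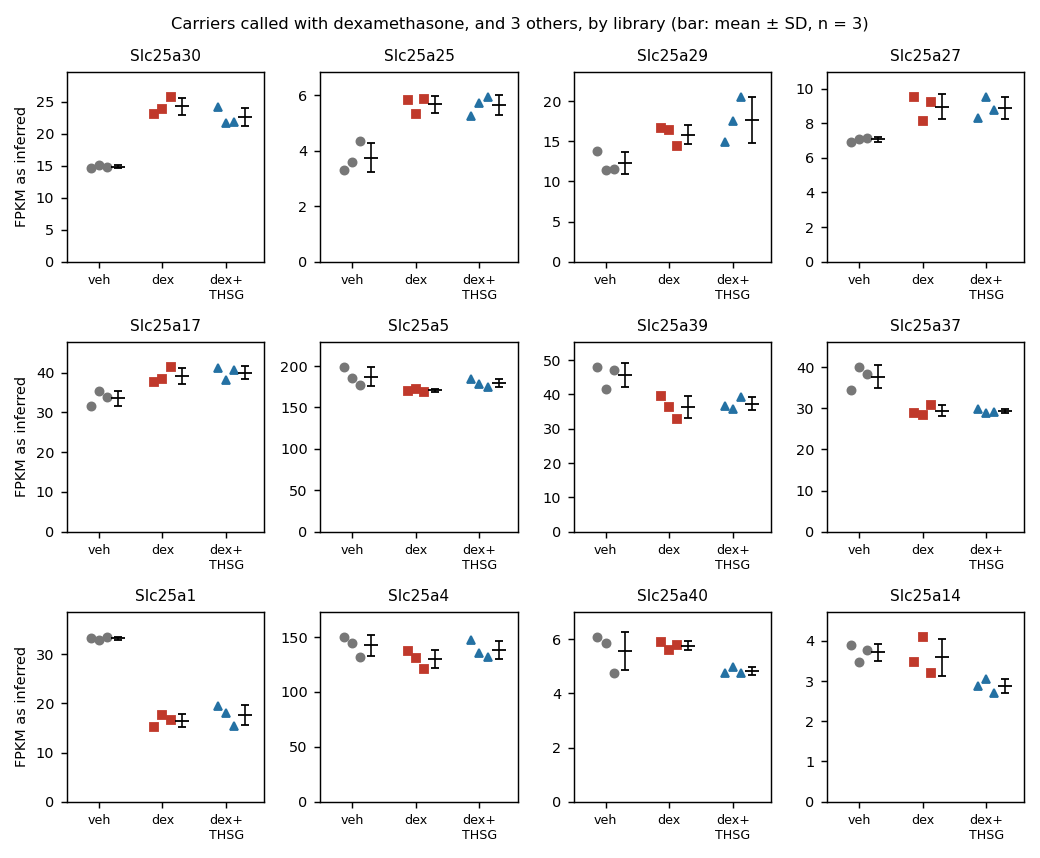
Level in FPKM (axes from 0) of the 9 carriers called for dexamethasone against vehicle and of Slc25a4, Slc25a40 and Slc25a14, 1 panel per gene, with 1 point per library and, beside the points, the mean ± SD of each group (n = 3). For Slc25a1 the vehicle libraries sit at 32.9 to 33.6 FPKM, above all others, and for Slc25a30 at 14.7 to 15.1 FPKM, below all others.

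Among the 6 adenine nucleotide and phosphate carriers, 1 rose and 1 fell with dexamethasone, beside 12.7% and 20.9% of all genes. Slc25a25 belongs to the calcium-regulated carriers that exchange ATP-Mg for phosphate and so set the adenine nucleotide content of the matrix. It stood at 3.31, 3.60 and 4.35 FPKM with vehicle, 5.82, 5.32 and 5.87 FPKM with dexamethasone and 5.23, 5.73 and 5.94 FPKM with THSG added. All libraries with dexamethasone lay above the vehicle libraries. Its rise was 0.59 on the log2 scale (SE 0.112, limma adjusted p = 0.00166). Of its paralogs, Slc25a24 was higher in every dexamethasone library, at 27.7, 28.8 and 31.2 FPKM against 26.2, 25.6 and 26.5 FPKM with vehicle, and was not called (0.16, limma adjusted p = 0.0626). It passed the threshold without dexamethasone replicate 1 (0.20, limma adjusted p = 0.0453) and without replicate 1 of dexamethasone plus THSG (0.16, limma adjusted p = 0.0469), and was 0.11 without dexamethasone replicate 3 (limma adjusted p = 0.209). Slc25a23, the lowest member, changed by -0.20 (limma adjusted p = 0.449).

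The abundant translocators moved little. Slc25a5, which exchanges ADP for ATP and is the form of proliferating cells, stood at 199, 186 and 177 FPKM with vehicle, 170.4, 172 and 169 FPKM with dexamethasone and 184, 179 and 175 FPKM with THSG added. The dexamethasone libraries were below all 6 others. The log2 fold change was -0.13 (SE 0.048) and the limma adjusted p was 0.0497, just inside the threshold. This call was lost under 13 of 20 other settings, among them median-ratio scaling (-0.09, limma adjusted p = 0.16). It was lost without any 1 of 8 libraries, all but vehicle replicate 3, with limma adjusted p from 0.056 to 0.169. Slc25a4, the form of heart and skeletal muscle, stood at 150.4, 145 and 132 FPKM with vehicle, 137, 131 and 121 FPKM with dexamethasone and 148, 136 and 132 FPKM with THSG added. Its groups overlapped, and the log2 fold change was -0.13 as well (SE 0.064, limma adjusted p = 0.133).

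The phosphate carrier Slc25a3 stood at 267, 251 and 246 FPKM with vehicle, 251, 262 and 243 FPKM with dexamethasone and 281, 253 and 267 FPKM with THSG added. The 3 groups overlapped and the change with dexamethasone was -0.01 (SE 0.051, limma adjusted p = 0.856). The ratio of Slc25a5 to Slc25a4 was 1.32 ± 0.026, 1.32 ± 0.077 and 1.30 ± 0.043 in the 3 groups in the same order (SD, n = 3). Slc25a3 over the sum of both translocators was 0.773 ± 0.020 with vehicle, 0.840 ± 0.025 with dexamethasone and 0.840 ± 0.033 with THSG added. Here too, dexamethasone against vehicle gave an exact permutation p of 0.1, the smallest possible (adjusted p = 0.262). Slc25a4 and Slc25a5 are close in sequence and Slc25a5 has an annotated processed pseudogene, so how reads were divided among these genes is uncertain.

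Of 8 partners of ATP export in the table, 1 rose with dexamethasone and 0 fell, beside 12.7% and 20.9% of all genes. Hk2, the hexokinase that binds the outer membrane of mitochondria, rose from 13.01 to 17.99 FPKM (log2 fold change 0.46, limma adjusted p = 0.00211). The outer membrane channel Vdac1, through which nucleotides pass, stood at 160.1 and 161.7 FPKM (0.01, limma adjusted p = 0.88).

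Of the 6 carriers of amino acids and of the malate-aspartate shuttle, 1 rose and 0 fell, beside 12.7% and 20.9% of all genes. Slc25a29, a carrier of basic amino acids such as arginine and lysine, stood at 13.9, 11.4 and 11.6 FPKM with vehicle, 16.7, 16.4 and 14.4 FPKM with dexamethasone and 14.9, 17.5 and 20.6 FPKM with THSG added. The vehicle libraries lay below all others, and the spread was widest with THSG. The log2 fold change with dexamethasone was 0.37 (SE 0.115, limma adjusted p = 0.0275). It lost the call when vehicle replicate 2 or 3, or dexamethasone replicate 1 or 2, was left out, with limma adjusted p between 0.0806 and 0.09.

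The others were Slc25a44, which carries branched-chain amino acids (0.06, limma adjusted p = 0.672), the aspartate-glutamate carrier Slc25a12 (-0.03, limma adjusted p = 0.799), the glycine carrier Slc25a38 (0.03, limma adjusted p = 0.784), the glutamate carrier Slc25a22 (-0.15, limma adjusted p = 0.29) and the ornithine carrier Slc25a15 (0.19, limma adjusted p = 0.431). Their mean levels with vehicle ran from 1.69 FPKM for Slc25a15 to 10.1 FPKM for Slc25a44. None of these 5 was called in any of the 3 comparisons.

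Of 9 mitochondrial amino acid enzymes, 3 rose and 3 fell with dexamethasone, beside 12.7% and 20.9% of all genes. The 3 with the smallest p all fell: Aldh18a1 and Pycr1, which make proline from glutamate, at -0.98 (limma adjusted p = 8.38e-06) and -1.40 (limma adjusted p = 1.24e-05), and the ornithine aminotransferase Oat at -0.30 (limma adjusted p = 0.00038). Bcat2, which starts the breakdown of the branched-chain amino acids that Slc25a44 carries, was singled out after its values were seen; it rose from 18.1 ± 1.7 to 30.7 ± 5.2 FPKM (SD, n = 3, limma adjusted p = 0.000386). Of 6 enzymes of the malate-aspartate and glycerol phosphate shuttles, 2 fell and 0 rose, namely Gpd2 at -0.28 (limma adjusted p = 0.0133) and Got2 at -0.15 (limma adjusted p = 0.0258).

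Of the 9 carriers of cofactors and pyrimidine nucleotides, 1 rose and 0 fell, beside 12.7% and 20.9% of all genes. Slc25a17, the peroxisomal carrier of coenzyme A, FAD and NAD, was the most abundant of them. It stood at 31.6, 35.3 and 33.8 FPKM with vehicle, 37.6, 38.4 and 41.5 FPKM with dexamethasone and 41.3, 38.1 and 40.6 FPKM with THSG added. All 6 libraries with dexamethasone lay above the vehicle libraries. That rise was 0.22 on the log2 scale (SE 0.059, limma adjusted p = 0.0125). Without vehicle replicate 1 it was 0.18 (limma adjusted p = 0.0506), and without dexamethasone replicate 3 it was 0.18 (limma adjusted p = 0.0505).

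None of the remaining 8 was called. Log2 fold changes of 7 of them lay between -0.10 for the NAD carrier Slc25a51 and 0.29 for the coenzyme A carrier Slc25a42 (limma adjusted p = 0.359 and 0.181). Between them lay Slc25a16 (0.10), the pyrimidine nucleotide carriers Slc25a36 (0.11) and Slc25a33 (0.19), the folate or FAD carrier Slc25a32 (0.13) and the S-adenosylmethionine carrier Slc25a26 (0.17). Slc25a32 did not overlap, with 6.57, 6.58 and 6.59 FPKM for vehicle and 6.82, 6.77 and 8.15 FPKM for dexamethasone, where 1 library stood well above the other 2 (limma adjusted p = 0.275). With 1 library left out, Slc25a42 ranged from 0.19 without dexamethasone replicate 2 (limma adjusted p = 0.436) to 0.44 without dexamethasone replicate 3 (limma adjusted p = 0.0468).

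Among 9 folate and one-carbon enzymes, 4 fell and 1 rose with dexamethasone (median log2 fold change -0.17), beside 20.9% and 12.7% of all genes. The 3 with the smallest p were all mitochondrial. Aldh1l2, a formyltetrahydrofolate dehydrogenase, fell by 1.90 on the log2 scale (limma adjusted p = 2.53e-08), from 13.5 to 3.55 FPKM. Shmt2, the serine hydroxymethyltransferase, fell by 0.64 (limma adjusted p = 2.13e-05), and Mthfd1l, which releases formate, fell by 1.42 (limma adjusted p = 2.83e-05). The S-adenosylmethionine synthase Mat2a rose by 0.19 (limma adjusted p = 0.016). The carriers of these cofactors, Slc25a32 and Slc25a26, were not called.

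The carnitine-acylcarnitine carrier Slc25a20, which brings fatty acids into the matrix for oxidation, stood at 14.8, 15.7 and 13.8 FPKM with vehicle, 15.7, 14.9 and 16.7 FPKM with dexamethasone and 15.8, 14.4 and 15.1 FPKM with THSG added. The 3 groups overlapped, and the log2 fold change with dexamethasone was 0.09 (SE 0.070, limma adjusted p = 0.338). Of 11 genes of the carnitine shuttle and fatty acid oxidation, 1 rose and 1 fell, beside 12.7% and 20.9% of all genes. These were the carnitine acetyltransferase Crat at 0.30 (limma adjusted p = 0.00755) and Cpt1c at -0.52 (limma adjusted p = 0.016).

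Slc25a46 of the outer membrane, which takes part in mitochondrial fission and fusion, stood at 15.3, 17.6 and 17.0 FPKM with vehicle, 18.2, 16.7 and 18.2 FPKM with dexamethasone and 17.4, 15.8 and 17.8 FPKM with THSG added. Its groups overlapped, with a log2 fold change of 0.09 (limma adjusted p = 0.354). The incompletely characterised Slc25a45 changed by -0.12 (limma adjusted p = 0.478). Slc25a35 stood at 2.35, 3.15 and 2.82 FPKM with vehicle and 3.39, 5.07 and 2.89 FPKM with dexamethasone, so that these groups overlapped, with a log2 fold change of 0.41 (limma adjusted p = 0.112). That change ranged with the library left out from 0.18 without dexamethasone replicate 2 (limma adjusted p = 0.402) to 0.57 without dexamethasone replicate 3 (limma adjusted p = 0.0353).

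Genes outside the carriers that bear on all mitochondria were read in the same fit. Of all genes, 12.7% rose and 20.9% fell with dexamethasone, and no list was tested against these shares. Of 13 genes of the machinery that imports and inserts carriers, 3 fell and 0 rose with dexamethasone: Timm22, the channel of the carrier translocase, at -0.27 (limma adjusted p = 0.015), the receptor Tomm20 at -0.51 (limma adjusted p = 0.0294) and Agk, a subunit of the carrier translocase, at -0.34 (limma adjusted p = 0.0391). The groups of Tomm20 overlapped, with 41.7 FPKM in vehicle replicate 3 and 46.7 FPKM in dexamethasone replicate 2, while those of Timm22 and Agk did not. Of 13 mitochondrially encoded genes, 2 rose and 0 fell, with mt-Nd4 at 0.37 (limma adjusted p = 0.00995) and mt-Atp6 at 0.29 (limma adjusted p = 0.0388). Both were highest in dexamethasone replicate 3. There mt-Nd4 stood at 2326 FPKM, against 1902 and 1896 FPKM in dexamethasone replicates 1 and 2. For mt-Atp6 these values were 3655 FPKM against 3073 and 3032 FPKM. Of 13 regulators of mitochondrial biogenesis and stress in the table, 4 fell and 0 rose. The stress-response factors Atf5 and Atf4 were the lowest in p, with Atf5 falling from 64.3 ± 4.3 to 23.1 ± 6.1 FPKM (log2 fold change -1.51, limma adjusted p = 9.04e-06) and Atf4 from 133 to 95.5 FPKM (-0.48, limma adjusted p = 5.3e-06). Ppard, a fatty acid receptor, was at -0.38 (limma adjusted p = 0.00433).

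**Figure D4:**
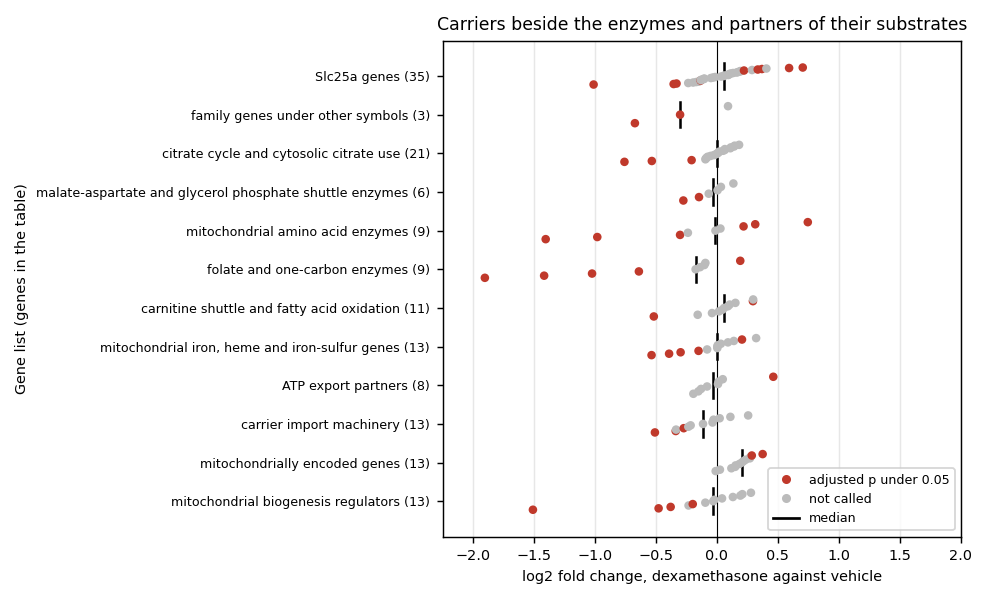
Log2 fold change for dexamethasone against vehicle of each gene (points) in the carrier family and in 11 lists of partner genes, with the number of genes in the table in parentheses. Red marks an adjusted p under 0.05 and the black bar is the median, which is 0.06 for the 35 carriers; the one-carbon and amino acid enzymes reach -1.90 and -1.40.

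Adding THSG to dexamethasone changed no carrier at an adjusted p under 0.05, and the share of all 10716 genes called was 0% too (limma). The smallest adjusted p of a member was 0.658. Without adjustment, 2 members (5.71%) had a p under 0.05, Slc25a14 and Slc25a40, beside 7.25% of all genes. Groups did not overlap in 4 members (11.4%), Slc25a5 higher and Slc25a38, Slc25a40 and Slc25a14 lower with THSG, beside 13.3% of all genes. The median log2 fold change was -0.01 over the members and 0.02 over all genes. Each of the partner lists also had 0 genes called.

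Slc25a14 had the lowest value of this comparison. It stood at 3.47, 4.11 and 3.21 FPKM with dexamethasone and at 2.88, 3.05 and 2.698 FPKM with THSG added, while vehicle libraries were at 3.89, 3.47 and 3.77 FPKM. The THSG libraries lay below all 6 others. The log2 fold change was -0.31 (95% interval -0.57 to -0.05, limma unadjusted p = 0.0238, adjusted p = 0.658).

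Slc25a40, a glutathione importer like Slc25a39, stood at 5.91, 5.59 and 5.80 FPKM with dexamethasone, 4.76, 4.98 and 4.75 FPKM with THSG added and 6.10, 5.86 and 4.76 FPKM with vehicle. The THSG libraries lay below the dexamethasone libraries and overlapped the vehicle libraries. The log2 fold change against dexamethasone was -0.25 (limma unadjusted p = 0.0309, adjusted p = 0.676). Slc25a30 had the next smallest p (limma unadjusted p = 0.12).

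For all 35 members the estimates lay between -0.31 (Slc25a14) and 0.15 (Slc25a29), and the 95% intervals reached from -0.57 (Slc25a14) to 0.56 (Slc25a26). The median distance from estimate to interval bound was 0.19 on the log2 scale, the narrowest 0.10 for Slc25a5 and the widest 0.42 for Slc25a26. For the 3 called members with the largest changes with dexamethasone, the intervals were -0.08 to 0.28 for Slc25a1, -0.24 to 0.03 for Slc25a30 and -0.26 to 0.24 for Slc25a25. These intervals bound the size of a difference and do not show that the groups were alike.

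Myotubes with dexamethasone plus THSG were also compared with vehicle, and the vehicle libraries are shared with the comparison above, so the values are given side by side and not as separate support. Against vehicle, 5 carriers rose (14.3%, beside 12.1% of all genes) and 4 fell (11.4%, beside 17% of all genes). The 5 that rose were those of dexamethasone alone: log2 fold changes with and without THSG were 0.60 and 0.70 for Slc25a30, 0.58 and 0.59 for Slc25a25, 0.51 and 0.37 for Slc25a29, 0.32 and 0.33 for Slc25a27 and 0.25 and 0.22 for Slc25a17. Slc25a1 was at -0.91 with THSG and -1.01 without, and Slc25a39 at -0.29 and -0.33. Slc25a37 was at 0.781-fold with THSG and 0.782-fold without. The call of Slc25a27 ended without replicate 2 of dexamethasone plus THSG (0.27, limma adjusted p = 0.0628).

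The lists differed in 1 gene each. Slc25a5 was called only without THSG and stood at -0.06 with it, while Slc25a14 was called only with THSG (0.780-fold, limma adjusted p = 0.0402). That call of Slc25a14 held in 6 of 20 other settings; in 1 of the others, a minimum mean of 5 FPKM, the gene was not tested. It ended without any 1 of the vehicle libraries, without any 1 of the libraries with THSG, and without dexamethasone replicate 1, with log2 fold changes from -0.40 to -0.31 and limma adjusted p from 0.0532 to 0.122. The tests of THSG against dexamethasone given above, which bear on the difference itself, called neither gene.

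Promoter sequence was read for members with a promoter entry, which Slc25a27 and Slc25a37, both called with dexamethasone, lacked. RefSeq promoters of mouse build GRCm38.p6, from 250 bases before to 50 bases after each start, were found for 26 of the 35 members, with 34 promoters in all. This build differs from that of the expression data, so positions apply to GRCm38.p6 only. The windows below belong to the carrier that fell most, to the carrier that rose most, and to the called carrier whose promoter held a glucocorticoid response element half-site. Capitals mark a CCAAT box (CCAAT), a GC box (GGGCGG) and, in Slc25a17, the half-site AGAACA; on the other strand the CCAAT box reads ATTGG, the GC box reads CCGCCC and the half-site reads TGTTCT. They lie at chr16:17928220-17928359 on the minus strand for Slc25a1, at chr14:75787038-75787177 on the minus strand for Slc25a30 and at chr15:81360865-81360987 on the minus strand for Slc25a17, and each is upstream of the start of its gene.
Slc25a1: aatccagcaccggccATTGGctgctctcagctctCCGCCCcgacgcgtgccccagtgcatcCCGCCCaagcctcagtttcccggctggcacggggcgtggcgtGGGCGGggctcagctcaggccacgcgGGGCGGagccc
Slc25a30: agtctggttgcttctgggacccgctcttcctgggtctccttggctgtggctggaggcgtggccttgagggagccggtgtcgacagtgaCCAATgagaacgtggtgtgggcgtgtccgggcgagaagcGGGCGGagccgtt
Slc25a17: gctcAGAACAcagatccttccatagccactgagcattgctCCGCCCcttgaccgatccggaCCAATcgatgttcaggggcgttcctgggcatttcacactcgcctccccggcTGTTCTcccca

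Of the 10 motifs searched on both strands, the GC box was in 32 of 34 member promoters (94.1%), beside 64.5% for genes of the table and 35.7% of all 32851 promoters. The CCAAT box was in 17 (50.0%), beside 37.4% both for genes of the table and for all promoters. The E-box CACGTG was in 6 (17.6%), beside 10.3% for genes of the table and 7.15% of all promoters. The TATA box TATAAA was in 0 of 34, beside 7.07% for genes of the table and 13.6% of all promoters. Slc25a1 held 4 GC boxes in the printed window and Slc25a30 held 1. The GC box, CCAAT box, E-box, TATA box and the sterol element core given below were not in the planned list of motifs and were added to it.

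The half-site AGAACA was in 2 member promoters (5.88%), those of Slc25a17 and Slc25a45, beside 19.0% of all promoters and 11.96% for genes of the table. In Slc25a17 it lay from -218 to -213 and, on the other strand, from -110 to -105, counted from the start site. The spaced core ACANNNTGT was in 2 (5.88%), Slc25a24 and Slc25a4, beside 3.86% for genes of the table and 6.85% of all promoters; Slc25a1 and Slc25a30 held neither form. The estrogen-related receptor element TCAAGGTCA, the NRF1 core GCATGCGC, the amino acid response element TGATGNAAT and the sterol element core TCACNCCAC were in 0 of 34. Their shares in the same order were 0.245%, 5.42%, 0.396% and 1.13% for genes of the table and 0.423%, 2.71%, 0.965% and 1.24% of all promoters. These are matches of letters within 1 window per start and not measured sites, and some members have more than 1 start.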

How the data were processed

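RNA from 9 C2C12 libraries (3 groups of 3) had been extracted with a Hybrid-R kit and made into stranded mRNA libraries, per the labels' protocols. Groups followed the titles, since the cell line field gives each sample another number. STAR 2.7.10a, featureCounts and GRCm39 are named per the submitters' processing notes. The table deposited by the authors is named as counts, but its values are fractional and all exceed 1. They were taken to be FPKM by inference, and another scaling is possible. Comparisons of level between genes hold only if the values are scaled to transcript length. The scaling, the filter and the strand setting are not given in the sources used here, and depth is unknown.

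FPKM values plus 0.1 were put on the log2 scale and fitted with limma 3.58.1 (R 4.3.3), with all 9 libraries in 1 model, an intensity trend, two-sided tests and Benjamini-Hochberg adjustment over 10716 genes at 0.05. The count test set out in the design was not used because the values are not counts. Fold changes are on this log2 scale, which understates changes of low genes. The fit was tested on simulated data. Called means an adjusted p under 0.05.

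Values in every library are given for Slc25a3, Slc25a4 and Slc25a5, for called members (up to 8 in each direction), for the 3 with the smallest p for THSG against dexamethasone and for the highest member of each role. Other members with library values were added after these were seen, and of each partner list up to 3 genes with the smallest p are named, with Bcat2, mt-Atp6, Mat2a and Vdac1 among the additions. The members and lists were chosen with earlier results of these data known. Alternatives changed the pseudocount, scaling, filter, variance model, samples, block and GC content with transcript length. Values of 2 genes are not reported here, and figures that name each carrier show 34.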

Additional observations from a re-analysis of the deposited data

How the results depend on the processing

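The number of carriers called stayed within 1.5 times the reported count, in each direction and comparison, under all 20 settings. For dexamethasone against vehicle it ranged from 4 to 6 higher and from 3 to 5 lower, leave-one-out fits included, and for THSG against dexamethasone it was 0 throughout. Scaling moved the median of all genes from -0.05 to 0.00 with quantile normalization, and the median of the carriers from 0.06 to 0.13. Slc25a5 lost its call and Slc25a24 gained one under each of median-ratio scaling, equal sums and quantile normalization.

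Replicate numbers are shared across groups in the labels. Deviations from the group means of same-numbered libraries correlated across genes with r from -0.09 to 0.11, and those of different numbers with r from -0.12 to 0.11, so the numbers were not taken to pair the libraries. With the replicate block, 5 carriers were called higher and 5 lower for dexamethasone against vehicle, with Slc25a4 added (-0.13, limma adjusted p = 0.0306).

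Depth is unknown, so counting error cannot be set apart from the spread between libraries. Fits that leave out a library rest on 2 in that group and pool the spread over all groups.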
